A study of Mus musculus with 5 samples.

Results

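Fatty acid oxidation and peroxisome genes were described in mouse kidney cells after unilateral ischemia-reperfusion (UIR). The set held 41 genes, chosen by symbol from the 32285 genes of a single-cell count matrix, and each symbol matched exactly 1 row. The study's methods give male C57BL/6J mice aged 6 to 8 weeks, and the labels name no genotype. The groups were sham and AKI (acute kidney injury by UIR) at days 1, 3, 14 and 28, with 1 sample each. The labels give 3 mice for each kidney sample and do not say whether these were pooled. The methods speak of 15 matrices, 12 of UIR and 3 of controls, and the matrix analysed here has 5 barcode suffixes. The kidney was digested to free cells before droplet capture, and the labels name no sort for a cell type. The labels name the cell type as goblet cell, a type of mucosal epithelium. The cells themselves carried kidney tubule, vessel, stromal and leukocyte markers.

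The labels do not say which barcode suffix belongs to sham or to which day. The 5 suffixes were therefore kept apart as libraries 1 to 5, and nothing is given by time point. With no known group there was no replicate of any condition. Differences between cells of the same library were read from the 5 library values, and a test across libraries was not run because they are different conditions that cannot be named. Levels are UMIs of a gene per 1000000 UMIs (CPM), summed over the cells of a group. Intervals in brackets are exact 95% counting intervals, which cover counting error only and neither mouse nor library variation. The spread over libraries is given beside them. A total of 57828 cells were kept, with 8292 to 19132 per library, library medians of 4038 to 5324.5 UMIs per cell, and 82426945 to 139382799 UMIs on all barcodes of a library. A set of 355 barcode sequences occurred in more than 1 library, and their 711 cells were 1.23% of those kept. Leaving them out changed no count of members given here.

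Cells burn fatty acids in mitochondria and in peroxisomes. A fatty acid is taken up, joined to coenzyme A, carried into the mitochondrion on carnitine and shortened by repeated rounds of beta-oxidation, whose electrons enter the respiratory chain through the electron transfer flavoprotein. Peroxisomes shorten very long and branched chains and break down the hydrogen peroxide formed. The proximal tubule of the kidney relies on this fuel for its transport work, and the nuclear receptor Ppara is the textbook activator of the genes involved.

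Nephron segments were set by marker genes that are not members. The proximal tubule gate held 43139 cells, 74.6% of those kept, of which 13900 had S1 markers (the early convoluted part), 7789 S2 markers and 9539 S3 markers (the straight part in the outer medulla). The distal gates were thick ascending limb with 917 cells, distal convoluted tubule with 273, connecting tubule and principal cell with 266 and intercalated cell with 69. Podocytes (63 cells), endothelial (320), stromal (99) and leukocyte (4796) gates were kept for comparison. Libraries differed in segment makeup, since S3 cells numbered 2869, 2336, 396, 970 and 2968 in libraries 1 to 5 and S1 cells 1175, 1878, 6556, 2665 and 1626.

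The start regions of the members were read for binding motifs. Levels along the nephron were not alike for all members, since 33 were highest in a proximal segment and 8 in a distal gate. RefSeq windows of 250 bases before the gene start (build GRCm38.p6) were searched for 37 of the 41 members. No window was searched for Acaa2, Hsd17b4, Decr1 and Crat. The chromosome that carries Acaa2 and Hsd17b4 was left out of the search, so its windows are not among the 32841 used for comparison. The hexamer AGGTCA, the core that many nuclear receptors bind, was found on either strand in 9 of 37 members (Acadm, Acadvl, Acot12, Acsm1, Cat, Cd36, Cpt1a, Echs1 and Scp2). It was in 14% of the 32841 windows searched. The direct repeat of AGGTCA with any 1 base between, the PPAR response element, was in 0 members and 0.0335% of windows, and the looser repeat of AGGNCA, with N any base, was in 0 members and 0.338%. TNAAGGTCA, the extended site of estrogen-related receptors, was in 0 members against 1.14%. The Hnf4a element CAAAGTCCA was in 0 against 0.384%, and the Hnf1 element, GTTAAT and ATTAAC with any 1 base between, in 0 against 0.00913%. AGGTCA lies within the exact repeat and the extended site, and the exact repeat is among the looser ones, so those shares overlap. A match is a description of letters and not of a bound site. Of 30 members with a searched window that were highest in a proximal segment 7 held the hexamer, and of 7 highest in a distal gate 2 did. Windows of members had a median GC content of 58.8% and all windows searched 52.4%. The windows below are shown because they contrast the medium-chain dehydrogenase gene Acadm and the fatty acid transporter gene Cd36, which were highest in S3, with Cpt1a and Echs1, which were highest in the distal convoluted tubule. For Echs1 the interval did not separate that level (230 CPM) from S3 (217 CPM). Each is written 5′ to 3′ on the gene's own strand, cut before an annotated exon of the gene where one fell inside, with AGGTCA or its reverse complement TGACCT in capitals. The capitals begin 249 bases before the RefSeq start in Acadm, 228 in Cd36, 94 in Cpt1a and 83 in Echs1. The windows of Cd36 and Cpt1a lie inside the longer span that the GENCODE annotation gives these genes. The positions are chr3:153944644-153944893 (minus strand), chr5:17835897-17836146 (minus), chr19:3323051-3323284 (plus) and chr7:140116477-140116671 (minus).
Acadm: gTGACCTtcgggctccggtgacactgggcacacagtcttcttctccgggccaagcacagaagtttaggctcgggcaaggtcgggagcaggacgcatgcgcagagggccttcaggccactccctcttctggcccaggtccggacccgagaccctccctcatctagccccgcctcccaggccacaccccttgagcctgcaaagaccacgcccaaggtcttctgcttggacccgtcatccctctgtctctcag
Cd36: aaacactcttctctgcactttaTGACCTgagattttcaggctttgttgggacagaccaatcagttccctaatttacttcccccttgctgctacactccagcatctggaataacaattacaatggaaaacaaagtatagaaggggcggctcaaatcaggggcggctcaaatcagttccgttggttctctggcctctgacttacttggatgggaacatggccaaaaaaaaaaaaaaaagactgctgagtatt
Cpt1a: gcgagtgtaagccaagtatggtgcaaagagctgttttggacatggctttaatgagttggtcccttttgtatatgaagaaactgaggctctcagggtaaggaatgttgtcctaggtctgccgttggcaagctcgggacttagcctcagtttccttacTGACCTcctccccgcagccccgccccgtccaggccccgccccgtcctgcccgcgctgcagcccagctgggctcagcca
Echs1: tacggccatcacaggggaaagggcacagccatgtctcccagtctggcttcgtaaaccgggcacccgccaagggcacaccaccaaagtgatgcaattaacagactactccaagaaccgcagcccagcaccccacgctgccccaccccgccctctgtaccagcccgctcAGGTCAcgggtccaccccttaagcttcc

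Most members were proximal genes. In 33 of 41 the highest level among 11 gates was in a proximal segment, beside 18.7% of 9776 genes, with 26 in S3 (9.37% of genes), 4 in S1 (Ppara, Acaa2, Acaa1a and Decr2) and 3 in S2 (Eci1, Decr1 and Etfb). The other 8 were highest in a distal gate. Ppargc1a, Cpt1a, Hadha, Echs1, Crat, Acsl1 and Fabp3 were highest in the distal convoluted tubule and Hadhb in intercalated cells. For 13 members the interval of the highest over the second gate reached 0 on the log2 scale. Ppara was one of these, with 50.8 CPM (49.3-52.5) in S1 and 49.3 (47.3-51.3) in S2.

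Summed over the 41 members, the level was 8158 CPM in S1, 11077 in S2 and 12893 in S3. It was 3478 in thick ascending limb, 5415 in distal convoluted tubule, 3144 in connecting tubule and principal cells, 3976 in intercalated cells, 3663 in podocytes, 1981 in endothelial, 2162 in stromal and 1925 in leukocyte cells. The summed level therefore increased along the proximal tubule, as it did within each of the 5 libraries, and among distal gates the pooled level was highest in the distal convoluted tubule. By library the thick ascending limb was at 4301, 3735, 2950.5, 3804 and 6489 CPM, and the distal convoluted tubule at 6906, 5225, 3355 and 7368 in libraries 1, 2, 3 and 5. The distal convoluted tubule was thus the higher in each of these 4, while intercalated cells, with enough cells in library 3 only, stood at 3387 there. Library 3 held 563 of the 917 thick ascending limb cells and library 5 held 134 of the 273 distal convoluted tubule cells. Barcodes too poor to be cells, which hold free RNA, carried members at 7869 CPM. In leukocytes, the 8 proximal markers stood at a median of 5.91% of their proximal level (4.88% to 13.9%) and the members at a median of 21.2% (3.55% to 77.6%), with medians of 1799.5 UMIs per leukocyte and 5282 per proximal cell. Of the members, 4 were below the range of the markers (Pdk4 at 3.55%, Ppara at 3.81%, Acsm3 at 4.36% and Eci3 at 4.73%), 11 within it and 26 above it. The proximal gate sets a minimum of these 8 markers, and leukocytes had to fail it. The marker percentages are therefore held low in part by the gates, which used no member. The part of free RNA in the leukocyte levels was not tested. Cd36, which macrophages also use to take up lipids, was at 77.6%.

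**Figure D1:**
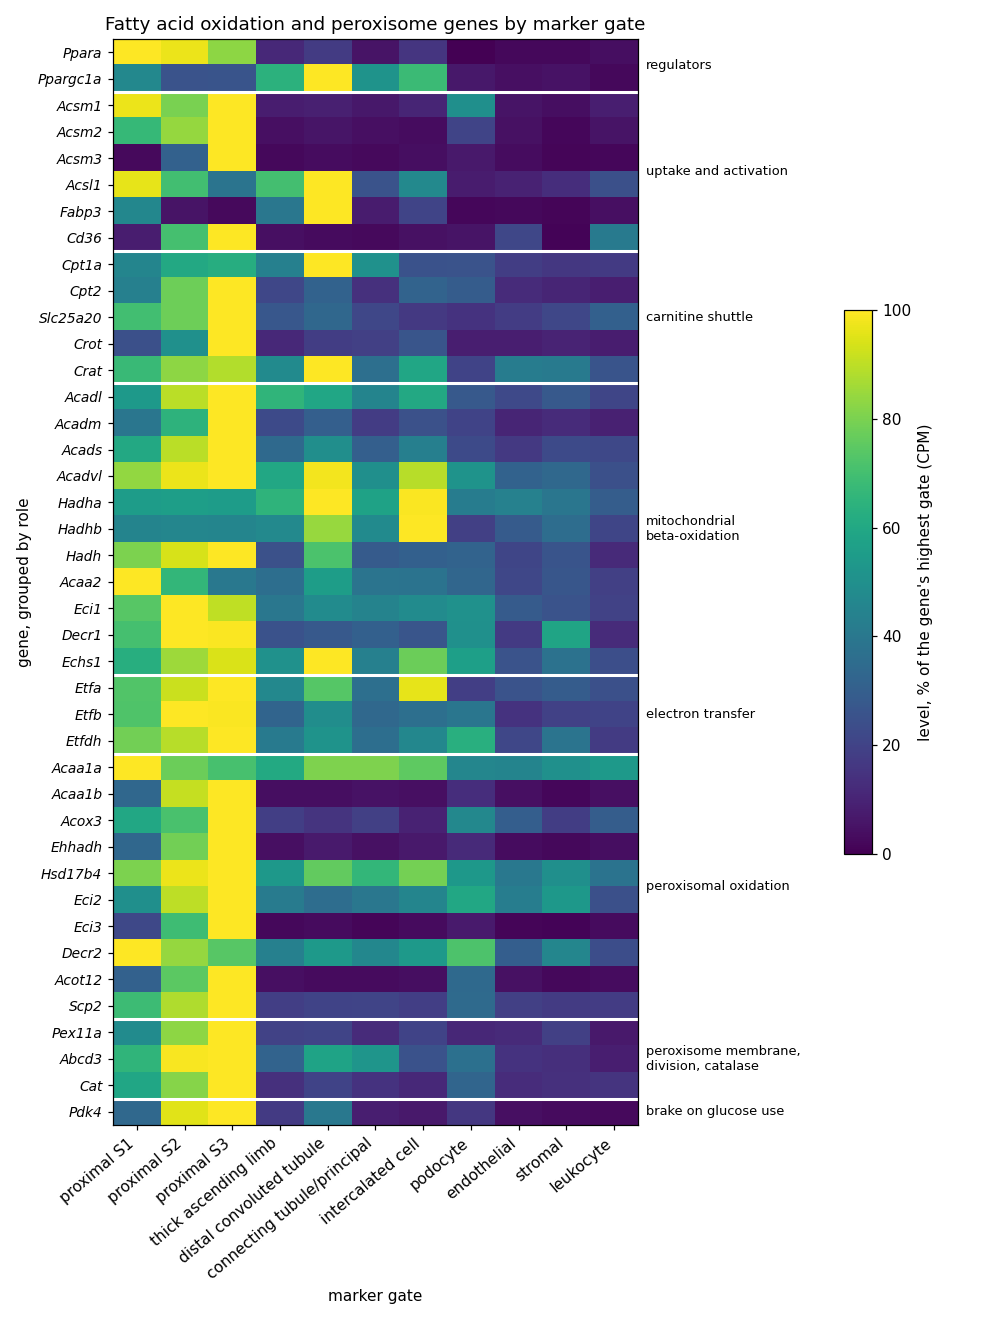
Level of each member in 11 marker gates, coloured as a percentage of the gene's CPM in its highest gate (yellow, 100%) and grouped by role. Most rows are brightest in the proximal S3 column, and Fabp3, Ppargc1a, Cpt1a, Hadha and Hadhb are brightest in distal columns.

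Proximal over distal tubule cells, 37 of 41 members were higher, beside 41.9% of all genes, and 25 at least 2-fold higher, where 15.4% of 9358 genes tested were that much higher. The median log2 ratio of the members was 1.34, and that of all genes was -0.15. It was 1.47, 1.39, 1.27, 1.42 and 0.63 in libraries 1 to 5. Library 5 stood lowest, and 134 of its 239 distal cells were distal convoluted tubule cells. By role, the median was 3.70 for uptake and activation (6 genes), 2.12 for peroxisomal oxidation (10), 1.68 for the carnitine shuttle (5), 1.10 for electron transfer (3) and 0.85 for mitochondrial beta-oxidation (11). Eci3, a peroxisomal enoyl-CoA isomerase gene, was at 286 CPM in proximal cells and 10.2 in distal cells, a log2 ratio of 4.80 (4.53-5.09). Acsm2, Acsm1 and Acsm3 encode medium-chain acyl-CoA synthetases, and their ratios were 4.24, 3.51 and 4.06. Acot12, a cytosolic thioesterase gene listed here with the peroxisomal enzymes, gave 4.19, the peroxisomal thiolase gene Acaa1b 4.13, and Ehhadh, the peroxisomal bifunctional enzyme gene, 3.83. Cd36 gave 3.89, Cat, which encodes catalase, 2.37, Pdk4 1.99 and Acadm 1.53. All of these were higher in 5 of 5 libraries. Reads of Acaa1b and Acaa1a can be split, since 21.5% and 19.2% of their 3′ stretches are shared. Distal cells carried a median of 4.74 proximal marker UMIs per 10000 UMIs against 91.8 in proximal cells, and the part of free RNA in the distal levels was not tested. Distal cells had to fail the proximal gate, which in part fixes this marker difference.

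Ppara was higher in proximal cells, whereas its coactivator Ppargc1a was higher in the pooled distal cells. Ppara was at 49.0 CPM (48.2-49.9) in proximal cells and 5.75 in distal cells, a log2 ratio of 3.09 (2.72-3.49), and was higher in 5 of 5 libraries. Ppargc1a, known for driving mitochondrial biogenesis, was at 65.1 CPM in proximal and 126 in distal cells, a log2 ratio of -0.96 (-1.04 to -0.87), and was lower in 5 of 5 libraries. Its level in thick ascending limb was 170.4, 163, 81.1, 108 and 361 CPM in libraries 1 to 5, and in proximal cells 64.0, 65.1, 76.0, 59.5 and 55.3. These did not overlap for the whole proximal gate. In S1 alone Ppargc1a was at 95.4, 93.5, 91.1, 72.2 and 88.2 CPM, which overlaps the thick ascending limb, and in library 3 S1 was above it. The S1 level pooled was 87.7 CPM, that of connecting tubule and principal cells 96.4 and those of S2 and S3 48.2 and 48.7.

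Pooled, Fabp3 was the only member at least 2-fold lower in proximal than distal cells, where 12.9% of genes were, and it lay at the cut. By library, 2, 2, 0, 1 and 5 members were that much lower in libraries 1 to 5. The share of all genes was not counted by library or under the settings that follow. The pooled count of 1 became 0 without library 1, 2, 4 or 5 and 2 without library 3. It was 0 at a mitochondrial limit of 10% and 2 in cells thinned to 1000 UMIs. Fabp3 encodes the heart-type fatty acid binding protein, which carries fatty acids in the cytosol. Its level in the distal convoluted tubule was 1070, 616, 244 and 922 CPM in libraries 1, 2, 3 and 5, and library 4 had too few such cells. In thick ascending limb it was 426, 217, 161, 299 and 674 CPM in libraries 1 to 5. In S1 it was 457, 237, 279, 250.3 and 309 CPM, and in S3 only 11.4, 11.1, 61.4, 18.7 and 21.4. Pooled, it was at 126 CPM in intercalated cells and 46.9 in connecting tubule and principal cells, beside 124 in the whole proximal gate. Fabp3 was thus highest in S1, thick ascending limb and distal convoluted tubule, and not in all distal cells. The pooled S3 level was below that of every other tubule gate, although in library 3 S3 (61.4 CPM) was not below S2 (59.7 CPM). The ratio of proximal over distal cells was -1.0 (-1.06 to -0.95) pooled and below 0 in 4 of 5 libraries. About 32.7% of the 90-base stretches near the 3′ end of Fabp3 are shared with a pseudogene, Fabp3-ps1, so part of its reads could be lost or split.

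Hadha and Hadhb encode the alpha and beta subunits of the mitochondrial trifunctional protein, which acts on long chains. Hadha was at 125, 127 and 125 CPM in S1, S2 and S3 and at 226 in the distal convoluted tubule and 225 in intercalated cells. Hadhb was at 113, 115 and 114 CPM in S1, S2 and S3, at 212 in the distal convoluted tubule and at 250.2 in intercalated cells. Both were flat along the proximal tubule, with pooled proximal over distal log2 ratios of -0.34 (-0.41 to -0.27) and -0.29 (-0.37 to -0.22). The libraries did not share this direction. In libraries 1 to 5 the ratio of Hadha was -0.39, -0.56, 0.02, -0.00 and -1.08, and that of Hadhb -0.34, -0.59, 0.26, 0.01 and -1.52. Library 3, which held 807 of the 1525 distal cells, was at or above 0 for both. Each was the other's closest member over the 11 gates (r of log levels 0.93, a description over gates that share libraries and free RNA). The genes lie head to head on chromosome 5, and their upstream windows share 228 bases. About 21.1% of the 3′ stretches of Hadhb are shared with the pseudogenes Gm13910 and Gm9108. Of other members, Etfb shares 51.3% of its 3′ stretches with Gm45233 and Scp2 31% with Scp2-ps2. Part of their reads could also be lost or split.

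Cpt1a, the carnitine palmitoyltransferase of the outer mitochondrial membrane and the gate for long chains, was at 186 CPM (166-209) in the distal convoluted tubule, 116 (113-118) in S3 and 84.6 (82.6-86.7) in S1. Cpt2, its partner on the inner membrane, was at 122 CPM in S3, 53.3 in S1 and 38.5 in the distal convoluted tubule. The log2 ratio of proximal over distal cells was 0.04 (-0.05 to 0.14) for Cpt1a and 1.70 (1.53-1.88) for Cpt2. The acyl-CoA dehydrogenase genes among the members (Acadl, Acadm, Acads and Acadvl) all had their highest level in S3. Acadm (medium chain) was at 877 CPM in S3 and 265 in the distal convoluted tubule, whereas Acadvl (very long chain) was at 161 and 158, a difference whose interval held 0. Echs1, the short-chain enoyl-CoA hydratase gene, was at 217 and 230 CPM, which did not differ beyond the interval either.

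Along the proximal tubule, 12 of 41 members were at least 2-fold higher in S3 than in S1, where 3.94% of 9234 genes were, and 3 were at least 2-fold lower, where 7.07% were. The median log2 ratio of the members was 0.52 and of all genes -0.15, with library medians of 0.41, 0.44, 0.43, 0.36 and 0.31. The 12 were Acsm3, Cd36, Eci3, Crot, Acot12, Ehhadh, Acaa1b, Pdk4, Acadm, Cpt2, Pex11a and Eci2, and each was higher in 5 of 5 libraries. They were 5 of the 10 members listed under peroxisomal oxidation, Acot12 included, 1 of 3 under peroxisome membrane, division and catalase, 2 of 5 of the carnitine shuttle, 2 of 6 of uptake and activation, 1 of 11 of mitochondrial beta-oxidation and Pdk4. By role the median was 0.88 for peroxisomal oxidation, 0.76 for peroxisome membrane, division and catalase, 0.52 for the carnitine shuttle and 0.32 for mitochondrial beta-oxidation. S3 cells had a median of 6828 UMIs and S1 cells 5101, with median mitochondrial shares of 13% and 10.2%.

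Acsm3 had the largest ratio of the members. Its level in S3 was 269.8, 352, 118, 156 and 519 CPM in libraries 1 to 5, and in S1 10.6, 11.2, 5.95, 7.63 and 26.3. The pooled log2 ratio was 5.21 (5.11-5.32), and within libraries 1 to 5 it was 4.68, 4.97, 4.31, 4.35 and 4.30, so the pooled value was above each of them. Every S3 value was above every S1 value, and the pooled S1 level of 9.42 CPM was close to the 6.26 CPM of leukocytes. Its neighbours on chromosome 7 were graded less, with log2 ratios of 0.57 (0.56-0.59) for Acsm2 and 0.04 (-0.01 to 0.09) for Acsm1. Acsm1 was lower in S3 in 5 of 5 libraries although the pooled value was near 0, and the libraries contributed unequal numbers of S1 and S3 cells.

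Cd36 was at 166, 274, 335, 175 and 244 CPM in S3 of libraries 1 to 5 and at 11.9, 19.8, 22.0, 13.3 and 11.5 in S1, a log2 ratio of 3.62 (3.54-3.70). Crot, the peroxisomal carnitine octanoyltransferase gene that exports shortened chains, was at 427, 513, 268, 267 and 423 CPM in S3 and 101, 90.4, 119, 82.1 and 112 in S1. The groups did not overlap for either gene. Eci3 and Ehhadh gave log2 ratios of 2.20 (2.16-2.23) and 1.58 (1.54-1.63) and were each other's closest member over the 11 gates (r = 0.99). Catalase, the enzyme that breaks down hydrogen peroxide, was at 504 CPM (Cat, S3) and 298 (S1). Pdk4, the kinase that holds back glucose oxidation, was at 289 and 97.7 CPM, a log2 ratio of 1.56 (1.53-1.60).

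Acot12 gave 1.68, Acadm 1.34, Cat 0.76 and Cpt1a 0.45, all higher in 5 of 5 libraries.

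The 3 members that went the other way were Fabp3 (-4.09), Acaa2 (-1.32) and Acsl1 (-1.31), and Ppargc1a was lower by a smaller amount (-0.85). Acaa1a, a second peroxisomal thiolase gene, differed by -0.49. All of these were lower in S3 in 5 of 5 libraries. Ppara differed by -0.27 and was lower in 3 of 5. Acaa2, the mitochondrial thiolase gene of the last beta-oxidation step, was at 602, 338, 177, 423 and 543 CPM in S1 and 139, 92.2, 112, 199 and 126 in S3. The S1 level of library 3, 177 CPM, lay below the S3 level of library 4, so the groups overlapped between libraries but not within any. Acsl1, a long-chain acyl-CoA synthetase gene, was at 151, 213, 87.9, 223 and 204 CPM in S1 and 41.1, 54.9, 51.8, 127 and 62.9 in S3.

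**Figure D2:**
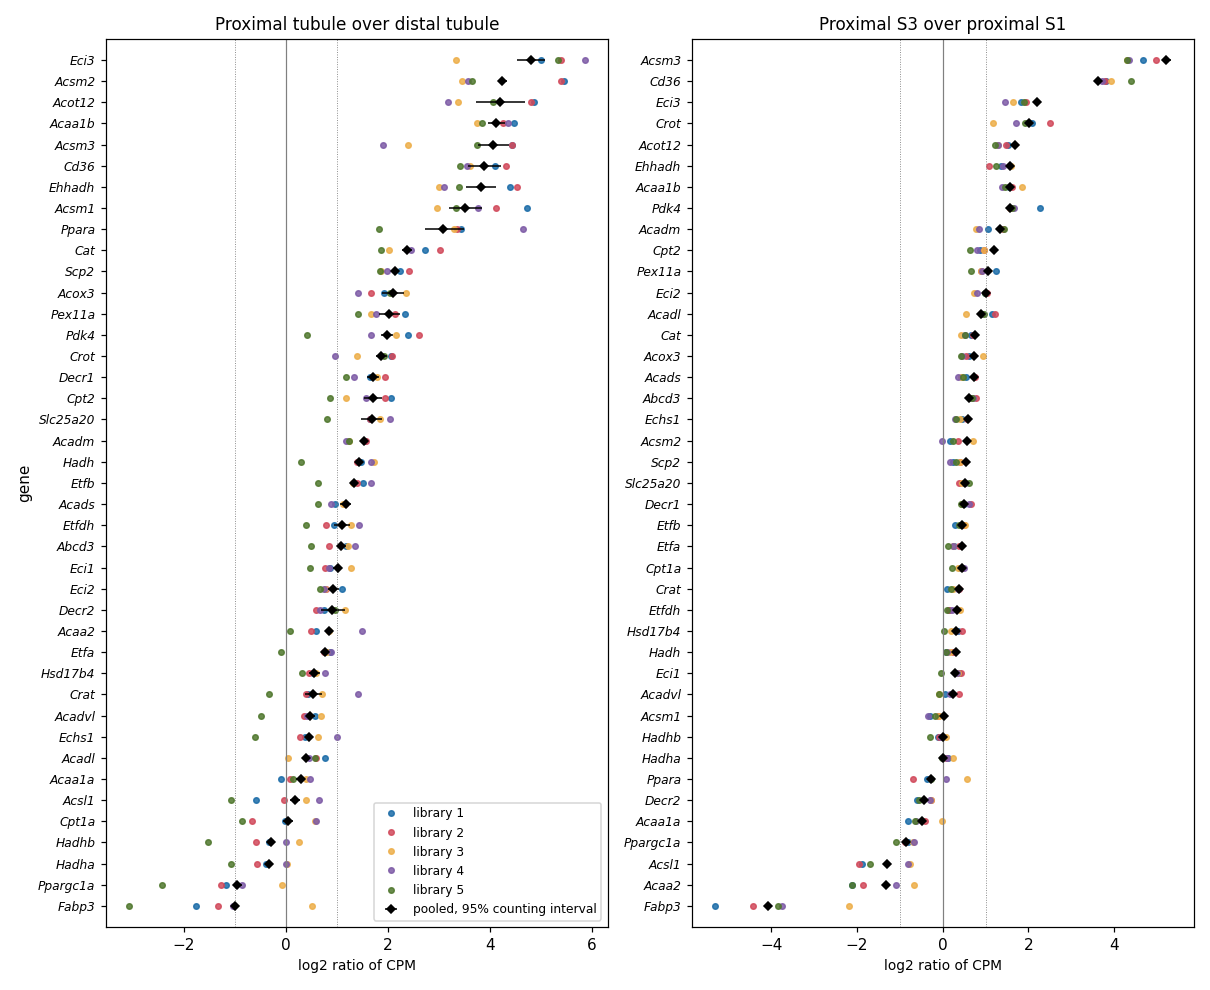
Log2 ratio of CPM for each member, proximal over distal cells (left) and S3 over S1 (right), with the pooled value and its 95% counting interval (diamonds) and the 5 library values (dots). Dotted lines mark 2-fold. Most points lie right of 0 on the left, from Fabp3 at -1.0 to Eci3 at 4.80, and the right panel runs from Fabp3 at -4.09 to Acsm3 at 5.21.

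Other genes of the pathway are given for description only. The list was chosen with earlier results of these data known, so it is no independent support. Of 63 listed, 58 reached 5 CPM over the groups compared, as all 41 members did. Proximal over distal, 30 were at least 2-fold higher and 5 lower, beside 15.4% and 12.9% of all genes, with a median log2 ratio of 1.02. The 5 were the acyl-CoA synthetase genes Acsl5 (-2.89) and Acsl4 (-2.29), the branched-chain dehydrogenase gene Acadsb (-1.51) and the fatty acid transport protein genes Slc27a1 (-1.25) and Slc27a4 (-1.21). S3 over S1, 15 were at least 2-fold higher and 1 lower (Acsl4, -1.03), beside 3.94% and 7.07% of all genes, with a median of 0.43.

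Injured tubule cells were then compared. Among 48333 cells that passed no distal and no non-tubule gate, 3773 had a UMI of Havcr1 (kidney injury molecule 1), or 7.81% (7.57-8.05). By library the share was 2.22%, 5.24%, 17.6%, 4.81% and 0.41%, and without library 3 it was 3.15%. The share was 8.29% in thick ascending limb and 1.94% in leukocytes. By library, 178, 459, 2744, 357 and 35 cells bore Havcr1, so 72.7% came from library 3. Bearing cells also had more Krt20 (18.7 against 1.95 CPM) and Sox9 (57.8 against 11.7), which mark injured tubule. They had a median of 6974 UMIs and negative cells 4790.5, with median mitochondrial shares of 9.53% and 11%. Pooled, thick ascending limb markers differed by 0.48 and leukocyte markers by 0.33 on the log2 scale, endothelial ones by -0.48 and stromal ones by -1.47. Weighted over library and segment, the first 2 were at -0.53 and -0.32. Of bearing cells 8.64% passed the S3 gate, against 20.7% of negative cells, and the S3 markers differed by -1.20 on the log2 scale.

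Pooled, 38 of 41 members were lower in Havcr1-bearing cells, where 42.9% of 9362 genes were lower. Only Acsm3 was at least 2-fold lower, where 0.737% of genes were. The median log2 ratio was -0.26 for members, 0.04 for all genes and -0.67 for the sum of the 8 proximal markers. Within libraries 1 to 5 the member median was -0.20, -0.23, 0.01, -0.10 and -0.42, with 34, 33, 20, 31 and 31 members lower. The median of all genes was 0.04, 0.08, -0.03, -0.00 and -0.12, and the share of all genes lower was not counted by library. For the members library 3, which held most bearing cells, was thus near 0. Its proximal markers differed by -0.28, and those of libraries 1, 2, 4 and 5 by -0.62, -0.56, -0.48 and -1.20. Weighted over strata of library and segment, the median was -0.11, with 32 members lower and 0 at least 2-fold lower, and the proximal markers were at -0.35. The count of 1 became 2 without library 3 or without library 4 and 0 without library 5. In the 1192 cells with 2 or more Havcr1 UMIs it became 3, with a member median of -0.44 and proximal markers at -0.99. Shares of all genes were not counted for the weighted values or these other settings.

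Pooled and within-library values parted for several members. Acsm3 was at 71.0 CPM in bearing and 159.6 in negative cells, a log2 ratio of -1.17 (-1.23 to -1.11). In libraries 1 to 5 it was at 179, 112, 34.9, 65.1 and 1128 CPM in bearing cells and 185, 192, 20.9, 55.0 and 361 in negative cells. Lower values were thus seen in 2 of 5 libraries, and the weighted ratio was -0.10. Crot was lower pooled (-0.20) but higher in 5 of 5 libraries. The large value of library 5 rested on 35 cells.

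Acaa2 had the lowest weighted ratio of the members. It was at 128, 85.0, 123, 172 and 93.3 CPM in bearing cells of libraries 1 to 5 and at 261, 193, 168, 323 and 241 in negative cells. The pooled log2 ratio was -0.93 (-0.98 to -0.88) and the weighted one -0.64. Bearing cells were lower in 5 of 5 libraries, with 172 in library 4 above only 1 of the negative values. Fabp3 was at 21.1, 41.1, 135, 59.8 and 37.9 CPM against 99.6, 84.9, 216, 118 and 84.7, lower in 5 of 5, whereas the pooled ratio was -0.26. Library 3 had both the highest Fabp3 and most of the bearing cells. Acsl1 (-0.60) and the peroxisomal oxidase gene Acox3 (-0.57) were also lower in 5 of 5, and 14 members in all were lower in every library, beside 13% of the 8818 genes with a value in each. Pdk4 (0.26) and Cd36 (0.17) were higher pooled and in 4 of 5 libraries.

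Hadh (307 CPM in bearing against 404 in negative cells) and Slc25a20 (52.4 against 67.5) were also lower in 5 of 5 libraries. For the members named below the pooled differences were small or uneven over libraries. Eci3 (-0.89) and Ehhadh (-0.54) were lower in 3 of 5 libraries and Acsm2 (-0.54) and Acadm (-0.50) in 4 of 5. Their weighted ratios were closer to 0, at -0.24, -0.08, -0.14 and -0.13 in that order. Lower values were also seen for Cat (-0.21) and Cpt1a (-0.15) in 3 of 5, both with a weighted ratio of 0.02. Ppargc1a (-0.16) was lower in 5 of 5 and Ppara (-0.10) in 4 of 5. Hadha (0.05), Abcd3 (-0.03), which encodes a fatty acyl transporter of the peroxisome membrane, and Acadl (-0.06) were close to 0.

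Vcam1, an adhesion molecule that marks tubule cells after failed repair, had a UMI in 1053 cells, or 2.18%, with 0.211% to 5.7% by library and 1.4% without library 2. The share was 4.05% in leukocytes and 1.09% in thick ascending limb. Libraries 1 to 5 held 313, 499, 143, 80 and 18 of them, and library 5 was left out of within-library values, which needed 20 cells. Of these cells 30.1% passed no gate, against 10.3% of negative cells. They had more Dcdc2a (143 against 17.2 CPM) and Ccl2 (115 against 2.05), and a median of 7965 against 4918.5 UMIs. Stromal markers summed to 29.9 CPM against 1.65, and leukocyte markers to 22.5 against 20.3.

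All 41 members were lower in Vcam1-bearing cells pooled, where 34.7% of genes were lower. Acsm3 and Acaa1b were at least 2-fold lower, where 1.47% of genes were. Without library 3 the count of 2 became 4, and without library 5 it became 1. It was 9 at a mitochondrial limit of 10%, 6 in cells thinned to 1000 UMIs and 11 in cells with 2 or more Vcam1 UMIs. Shares of all genes were not counted under these settings, within the proximal gate or with weighting. The median log2 ratio was -0.45, and that of all genes 0.16. It was -0.67, -0.52, -0.45 and -0.38 in libraries 1 to 4, where all genes had medians of 0.21, 0.19, 0.03 and 0.07. In all 4, 39 members were lower, beside 18.2% of genes. The proximal markers were lower too, by -0.64 pooled and by -0.97, -0.68, -0.73 and -0.74 in these libraries. Within the proximal tubule gate the member median was -0.23 and the markers -0.26, with 0 members at least 2-fold lower. That gate sets a minimum of the proximal markers, so the marker difference within it is narrowed in part by the gate. Weighted over strata the values were -0.33 for members, with 40 lower, and -0.47 for the markers. Whether fewer proximal transcripts or less of the pathway set it cannot be told apart here.

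By role, the median was -0.71 for peroxisomal oxidation, -0.66 for uptake and activation, -0.48 for the carnitine shuttle, -0.41 for electron transfer and -0.33 for mitochondrial beta-oxidation. Segment makeup differed too, since 13.3% of bearing and 19.9% of negative cells passed the S3 gate, and S3 markers differed by -0.96. Within the S3 gate (140 bearing cells) the member median was -0.15, with 34 members lower, and the share of all genes lower was not counted. Acsm3 was there at -0.50, Acaa1b at -0.36, Eci3 at -0.27 and Ehhadh at -0.08. Acsm3 was at 73.2, 63.5, 7.5 and 22.0 CPM in bearing cells of libraries 1 to 4 and 191, 197, 24.8 and 56.5 in negative cells, a pooled log2 ratio of -1.49 (-1.61 to -1.37). Acaa1b was at 316, 194, 172 and 357 CPM against 754, 433, 347 and 530, a ratio of -1.03 (-1.09 to -0.98). Each bearing value was below the negative value of its own library. Acaa2 was at 141, 91.8, 106 and 139.7 CPM against 263, 193, 157 and 316 (-0.99, -1.07 to -0.91), and Acadm at 333, 359.6, 252 and 363 against 623, 663, 357 and 507 (-0.79, -0.84 to -0.74). All 4 values of Acaa2 lay below all 4 negative ones. Ppara was at 31.8, 31.1, 24.7 and 35.1 CPM against 50.7, 40.6, 49.1 and 53.6, which do not overlap either (-0.62, -0.79 to -0.46). Eci3 (-0.90), Ehhadh (-0.81), Cd36 (-0.66), Fabp3 (-0.65), Acsm2 (-0.43), Cat (-0.39), Ppargc1a (-0.37) and Cpt1a (-0.21) were lower in 4 of 4 libraries. The smallest differences were those of Hadha (-0.18), Acadvl (-0.18), Hadhb (-0.13), Acaa1a (-0.06) and Pdk4 (-0.05), and the intervals of Acaa1a and Pdk4 held 0.

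Cycling tubule cells were those with UMIs of at least 3 of 10 cell cycle genes, 848 cells, compared with 43882 that had none. Libraries 1 to 5 held 32, 57, 535, 197 and 27, so 63.1% were from library 3, and 45.6% passed the S1 gate against 27.8% of the others. In cycling cells 38 of 41 members were lower, where 35.5% of 9337 genes were, and 4 were at least 2-fold lower, where 2.44% were. These were Acsm3 (-2.46, -2.65 to -2.27), Eci3 (-1.69, -1.80 to -1.59), Ehhadh (-1.34, -1.48 to -1.20) and Acot12 (-1.03, -1.21 to -0.86), all genes higher in S3 than S1. Without library 4 the count became 9, and the share of all genes was not recounted. S3 markers differed by -2.32, proximal markers by -0.67 and stromal markers by 1.93 between the groups (4.13 for stromal markers in library 2). Cycling cells had a median of 7897 UMIs and the others 4789. The median was -0.48 for members and 0.16 for all genes.

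Within libraries 1 to 5 the member median was -0.48, -0.74, -0.26, -0.20 and -0.42, and that of all genes 0.19, 0.28, 0.06, 0.14 and 0.13. In all 5, 25 members were lower, beside 10.8% of genes. Weighted over strata of library and segment the member median was -0.23, with 36 members lower and 0 at least 2-fold lower. The proximal markers were at -0.42 with this weighting. Within the S1 gate the member median was -0.25, with 1 at least 2-fold lower, and the proximal markers were at -0.58. Shares of all genes were not counted for the weighted values or the S1 gate. Within libraries 1 to 5 the proximal markers differed by -0.46, -1.07, -0.19, -0.78 and -0.27. Eci3 was at 157, 88.1, 59.8, 149.7 and 143 CPM in cycling cells and 431, 339, 105, 253 and 386 in the others, lower in 5 of 5 libraries, and its weighted ratio was -0.72. Acadm was at 353, 270, 294, 397 and 466 CPM against 614, 645, 361, 509 and 924. Both genes were lower in every library, and the Acadm levels of cycling cells in libraries 4 and 5 were above the library 3 level of the others. Crot (-0.92), Acsm2 (-0.86), Cat (-0.60) and Ppara (-0.48) were lower in 5 of 5 libraries, and Cd36 (-0.83), Pdk4 (-0.50), Cpt1a (-0.28), Hadhb (-0.13), Decr2 (-0.13) and Acadl (-0.11) in 4 of 5. Weighted, Cd36 (0.16) and Acadl (0.11) were above 0 and Pdk4 was at -0.03. Fabp3 (0.12), Hadha (0.09) and Ppargc1a (0.04) were the members above 0 pooled, and Fabp3 was lower in 4 of 5 libraries, with a weighted ratio of -0.52. The members lower in every library in the Havcr1, Vcam1 and cycling comparisons alike were 7, namely Acox3, Acsl1, Echs1, Eci1, Etfb, Hadh and Slc25a20. Of 8392 genes with a value in each, 2.94% were. The 3 comparisons share most of their reference cells, and their library values are not independent.

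**Figure D3:**
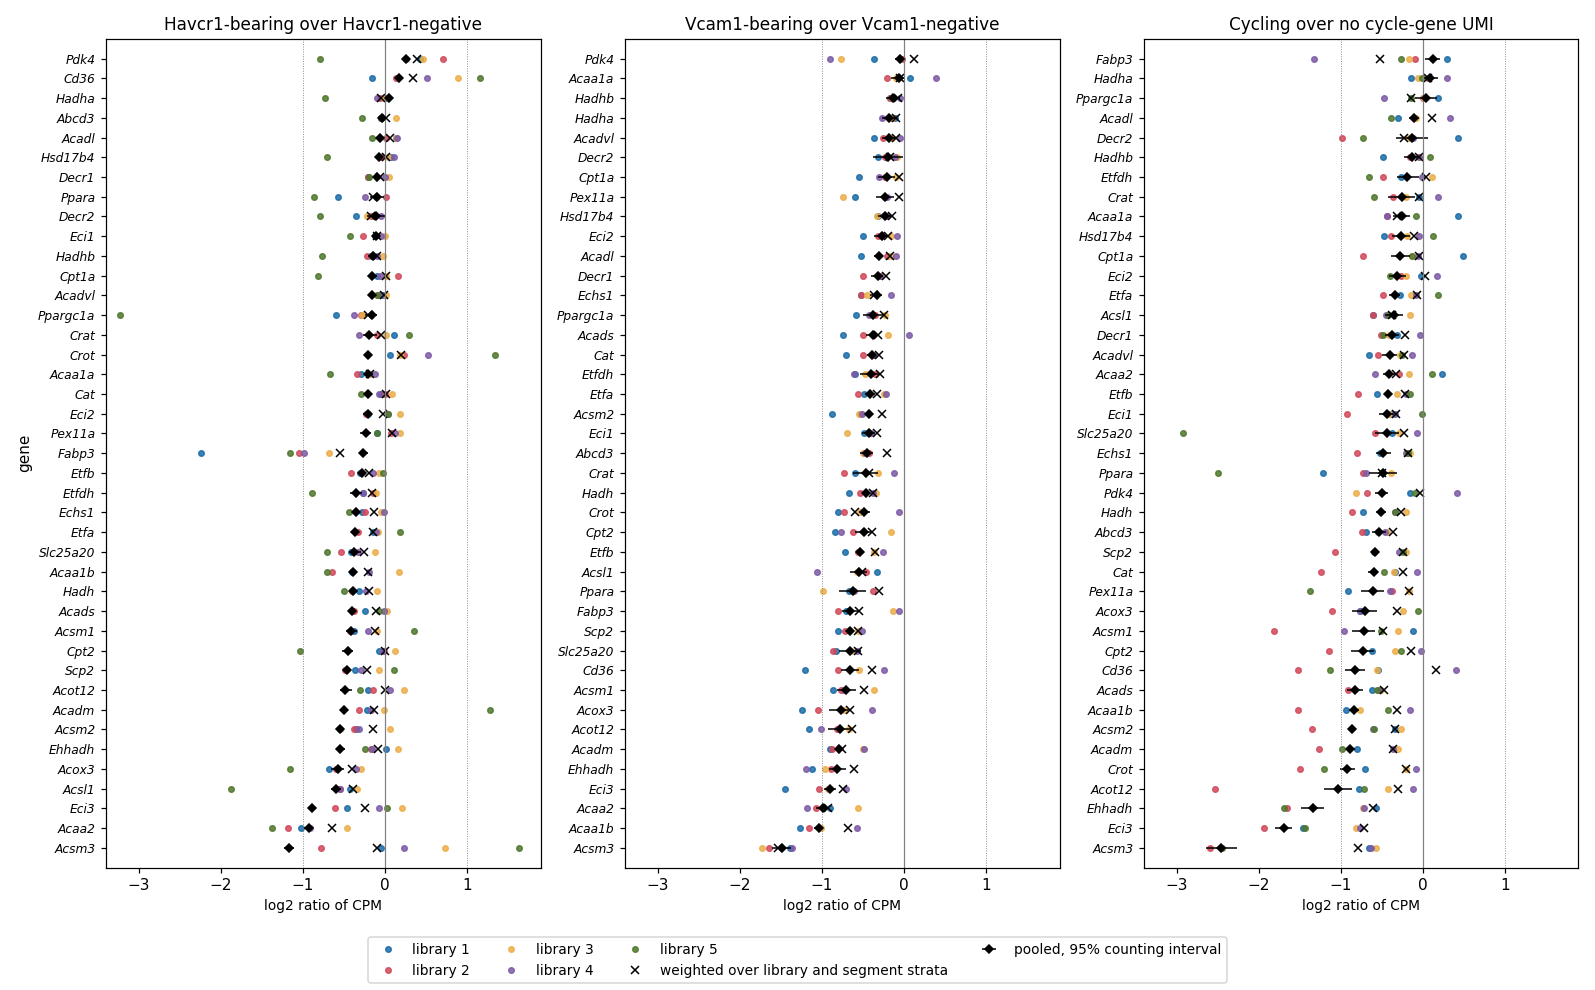
Log2 ratio of CPM for each member in Havcr1-bearing, Vcam1-bearing and cycling cells over their reference cells, with the pooled value and its 95% counting interval, library values (dots) and the value weighted over library and segment strata (crosses). The Vcam1 points lie almost all left of 0 in each library, while the Havcr1 library 3 points centre on 0.01 and crosses lie closer to 0 than pooled values for members such as Acsm3 and Eci3.

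The other genes of the pathway, a list chosen with earlier results known, gave medians of -0.23, -0.35 and -0.40 in the 3 comparisons. Of 58 tested, 51, 49 and 48 were lower, beside 42.9%, 34.7% and 35.5% of all genes. At least 2-fold lower were 2, 2 and 6, beside 0.737%, 1.47% and 2.44%. With Havcr1 they were Amacr and Ppard, and with Vcam1 the fatty acid omega-hydroxylase genes Cyp4a10 and Cyp4a14, known Ppara targets. These 4 genes were chosen for mention after their values were seen, and the 6 of cycling cells are given as a count. Acsl5 was the only gene of the list at least 2-fold higher, in Vcam1-bearing cells, at 40.1 against 14.2 CPM.

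Across libraries, the summed level in proximal cells was 12299.6, 11134, 7837, 10261 and 11949.8 CPM in libraries 1 to 5. Library 3 was lowest and held the lowest value of 27 members, while library 1 held the highest of 23. How many of all genes were lowest or highest in these libraries was not counted, so this is not shown to be particular to the members. The same order of libraries 1 and 3 held within segments. The sum was 9961, 8669.8, 7006, 9125 and 9498 CPM in S1, 12805, 11564, 9652, 11041 and 11844 in S2, and 13216, 13126, 10565, 11787 and 12984 in S3. The median mitochondrial share of UMIs in proximal cells was 14.2%, 12.6%, 9.03%, 10.5% and 11.8%, thus lowest in library 3 as well, and its part in the member levels was not tested.

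The highest and lowest library were at least 2-fold apart for 12 of 41 members in the proximal gate (18.5% of all genes), 8 in S1 (15.9%), 7 in S2 (20.7%) and 9 in S3 (20.1%). The median highest-over-lowest fold of the members was 1.65, 1.48, 1.61 and 1.52 in these gates, beside 1.5, 1.5, 1.56 and 1.55 for all genes. Acsm3, Eci3, Cpt2, Acsl1 and Acaa2 were at least 2-fold apart in each of S1, S2 and S3. The share of all genes that far apart in all 3 was not counted, and segment by segment the members were near all genes. In the proximal gate Acsm3 was at 178, 176, 25.8, 56.4 and 335 CPM, a 13.0-fold range that dropped to 4.42-fold in S1 and 4.39-fold in S3. Eci3 was at 437, 345, 107, 249.8 and 382 CPM, and Cpt2 at 139, 89.2, 46.9, 89.8 and 90.0. Library 3 was lowest for all 3 genes. Acsl1 was highest in library 4 in the proximal gate, at 77.0, 123, 82.4, 188 and 108 CPM.

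**Figure D4:**
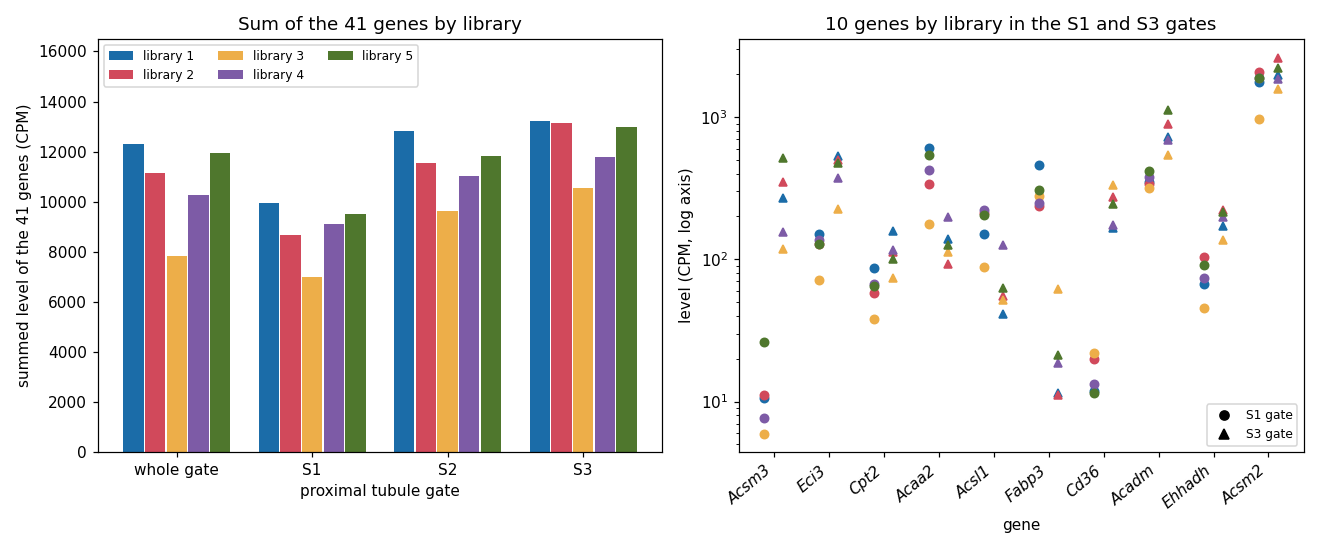
Left, summed CPM of the 41 members in libraries 1 to 5, in the proximal gate and its S1, S2 and S3 parts, with library 3 the lowest bar in each. Right, CPM of 10 members on a log axis in S1 (circles) and S3 (triangles) of each library, where Fabp3 in S3 is at 61.4 CPM in library 3 against 11.1 to 21.4 in the others.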

How the data were processed

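The authors made libraries with the 3′ v3.1 droplet kit, and per the labels reads were processed with Cell Ranger 6.0 against mm10. The deposited values are raw UMI counts for all barcodes, merged over 5 suffixes, with no normalization. Cells were called per library in the steps Cell Ranger uses: a depth step with 3000 expected cells, then a comparison with the ambient profile (at least 500 UMIs, adjusted p of at most 0.01). Cells with under 200 genes or over 25% mitochondrial UMIs were left out. Doublets were not removed from the main values.

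Cells were gated per 10000 UMIs. The proximal gate needed at least 20 marker UMIs and 3 of its markers, thick ascending limb and leukocytes 10, and other gates 5. S1, S2 and S3 needed at least 5, 10 and 5 of their own markers. S1 cells had to be below 2 for S3 markers, and S3 cells below 2 for S1 markers. S2 cells had to be below 5 for both. S2 markers were not limited in S1 or S3 cells, and summed to 757, 2224 and 1958 CPM in the S1, S2 and S3 gates. These limits were set after marker distributions were seen, and the members and gene lists were chosen with earlier results of these data known. Cells that passed gates of 2 lineages (2692) were left out. Counts were summed per gate and given as CPM, and genes with at least 5 CPM over a comparison were compared. Ratios have exact conditional binomial intervals. Weighted ratios are Mantel-Haenszel ratios over library and segment. All 41 members are covered. Each comparison names Ppara, Ppargc1a, Cpt1a, Acadm, Ehhadh, Cat, Acsm2, Pdk4, Cd36 and Fabp3 and the 5 members with the lowest and the 5 with the highest log2 ratio. Of 63 other genes of the pathway counts are given, with those at least 2-fold against the direction of most members. Further genes were named after their values were seen. Library values needed 20 cells.

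The unit and sample assignment of every file was checked, and both calling and ratios were tested on simulated data. Python 3.11.15, NumPy 2.4.6, SciPy 1.17.1, pandas 2.3.3 and Scanpy 1.11.5 were used. Gene positions and shared 3′ stretches (90 bases within the last 600) came from GENCODE vM21 (GRCm38), and upstream windows from RefSeq (GRCm38.p6). Apart from the calling of cells no p-values were computed, and the 5 conditions were not compared, since the labels do not tie suffixes to samples.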

Additional observations from a re-analysis of the deposited data

How the results depend on the processing

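Counts of members past 2-fold were recomputed under other settings, as were their medians, none of which changed sign under these settings, although the Havcr1 median within library 3 alone was 0.01 against -0.26 pooled. Leaving out each library in turn gave 29 to 36 members highest in a proximal segment (33 with all), 21 to 25 higher in proximal than distal cells (25), 13 to 15 different between S3 and S1 (15), 0 to 2 lower with Havcr1 (1), 1 to 4 with Vcam1 (2) and 3 to 9 in cycling cells (4). A mitochondrial limit of 10% gave 9 with Vcam1, and leaving out the highest Scrublet scores (0.8% per 1000 cells) gave 4. Cells thinned to 1000 UMIs gave 3 with Havcr1 and 6 with Vcam1, and 2 or more UMIs of the gating gene 3 and 11. The S3 gate gave 0 and 0, the proximal gate 0 with Vcam1, and the S1 gate 1 with Vcam1 and 1 in cycling cells. Weighting over library and segment gave 0 with Havcr1, 1 with Vcam1 and 0 in cycling cells. Libraries compared in S2 gave 7 members in place of 12. Of 107 recomputed counts, 21 moved by more than 1.5 times. Apart from libraries compared within segments, shares of all genes were not recounted under these settings. Acsm3 with Havcr1 was reversed at 0.36 when the library log2 ratios were averaged, which also turned Crot (0.47), Acadm (0.12), Acadl (0.06), Pex11a (0.04) and Hadha (-0.18). The weighted ratio had the other sign than the pooled one for 8 members with Havcr1, for Pdk4 (0.12) with Vcam1, and in cycling cells for 6, namely Cd36 (0.16), Acadl (0.11), Etfdh (0.04), Eci2 (0.03), Ppargc1a (-0.14) and Fabp3 (-0.52). Of 1435 recomputed ratios of single members, 431 moved by more than the SD of the library medians. The causes were not tested. The settings within segments, by library mean, weighted, without mitochondrial UMIs and without shared barcodes were added after seeing the data. The labels give no replicate numbers to pair, and a test paired by library was not run. The within-library and weighted ratios compare cells of the same library. With few cells (69 intercalated, 63 podocytes, 35 Havcr1-bearing in library 5) depth limits the values, and variation between mice is not seen.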
